A study of Mus musculus with 28 samples.

Results

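The CD300 and PILR receptors are 2 families of immunoglobulin-like receptors on the surface of myeloid cells. Their 9 members described here are Cd300a, Cd300lf, Pilra, Cd300c2, Cd300lb, Cd300ld, Cd300e, Pilrb1 and Pilrb2, chosen by gene symbol out of 55487 genes in the count tables. All 9 held enough reads to be tested in both experiments. They are called paired receptors because members with similar outer domains send opposite signals. Inhibitory members carry tyrosine motifs (ITIMs) that recruit phosphatases such as SHP-1. Activating members have short tails and signal through the adaptors DAP12 (Tyrobp) or the Fc receptor gamma chain (Fcer1g). CD300 receptors recognise lipids exposed on dying cells, and PILR receptors bind O-glycosylated proteins that carry sialic acid.

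The RNA came from dendritic cells sorted from spleens of C57BL/6 mice. Type 1 conventional dendritic cells (cDC1) are known for presenting antigen from dead cells to CD8+ T cells, and type 2 cells (cDC2) for priming CD4+ T cells. Hybrid is the submitters' word for a further sorted population, given here only for mice with an altered Irf8 enhancer. That enhancer lies 32 kb from Irf8, the transcription factor that cDC1 depend on, and its altered form is named +32H. Experiment 1 held 16 libraries: hybrid, cDC1 and cDC2 of Irf8 +32H/H mice (H/H, both copies altered) and of Irf8 +32H/+ mice (H/+, 1 copy), and cDC1 and cDC2 of wild-type (WT) mice. Experiment 2 held 12 libraries: hybrid and cDC1 of H/H Nfil3-/- mice, hybrid cells of H/H mice with the Zeb2 -165D123 enhancer alleles, hybrid and cDC1 of H/H mice, and WT cDC1. Nfil3 and Zeb2 encode transcription factors. The Nfil3-/- and Zeb2 alleles were examined on the H/H genotype only, so these groups carry the altered Irf8 enhancer too. Each of the 14 groups had 2 biological replicates. The labels give neither the sort gates, the age and sex of the mice, nor whether the 2 replicates came from separate animals, so p-values measure the spread between these libraries.

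Libraries summed to 23393658 to 38174301 reads in experiment 1 and to 17540512 to 22708519 reads in experiment 2. Irf8 averaged 834 ± 4.26 CPM (reads scaled to the size of the library) in H/H cDC1 and 2270 ± 438 CPM in WT cDC1 of experiment 1 (SD, n = 2 each). Nfil3 averaged 3.22 ± 0.654 CPM in H/H Nfil3-/- cDC1 and 36.3 ± 0.872 CPM in H/H cDC1. Zeb2 averaged 14.9 ± 6.55 CPM in H/H Zeb2 -165D123 hybrid cells and 42.8 ± 5.89 CPM in H/H hybrid cells. A list of 8 cDC1 markers summed to 1208 to 1666 CPM in hybrid cells of experiment 1, to 4468 to 5154 CPM in WT cDC1 and to 165 to 174 CPM in WT cDC2. Irf8 is part of this list. A list of 8 cDC2 markers summed to 1282 to 1932 CPM in the same hybrid cells, to 22.4 to 24.2 CPM in WT cDC1 and to 1467 to 1468 CPM in WT cDC2. Hybrid cells thus held markers of both types. In experiment 1 the libraries numbered 2 of every group held Xist RNA and those numbered 1 did not. In experiment 2 only replicate 2 of the Nfil3-/- hybrid, Zeb2 -165D123 hybrid and Nfil3-/- cDC1 groups held it.

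The 6 CD300 genes lie within 244.0 kb of chromosome 11 (build GRCm38, chr11:114890041-115133992), in the order Cd300a, Cd300lb, Cd300ld, Cd300c2, Cd300e and Cd300lf, with Cd300a on the plus strand and the others on the minus strand. The 3 PILR genes lie within 49.9 kb of chromosome 5 (chr5:137821952-137871815), all on the minus strand. Their gene IDs are ENSMUSG00000034652 for Cd300a, ENSMUSG00000047798 for Cd300lf, ENSMUSG00000046245 for Pilra, ENSMUSG00000044811 for Cd300c2, ENSMUSG00000063193 for Cd300lb, ENSMUSG00000034641 for Cd300ld, ENSMUSG00000048498 for Cd300e, ENSMUSG00000066684 for Pilrb1 and ENSMUSG00000066682 for Pilrb2. The longest coding transcripts of Pilrb1 and Pilrb2 were 95.8% identical (1735 of 1811 aligned bases), so reads can be split between the pair and their separate values are uncertain. Their summed level is therefore given beside them. Of the 50-base words of each transcript, 29.9% of those of Pilrb1 and 29.0% of those of Pilrb2 also occurred in another member, against 0 to 8.0% for the other 7.

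Promoters are shown for the 3 PILR genes, which moved together between cell types, and for Cd300a and Cd300lf, the inhibitory receptors that differed most between genotypes in cDC1. The sequences are from RefSeq (GRCm38.p6) and run 5′ to 3′ on the gene's strand, from 250 bases before to 50 bases after the annotated start. They span chr5:137836229-137836528 (Pilra, minus strand), chr5:137858000-137858299 (Pilrb1, minus), chr5:137871709-137872008 (Pilrb2, minus), chr11:114889791-114890090 (Cd300a, plus) and chr11:115133943-115134242 (Cd300lf, minus). Capitals mark matches on either strand to the ETS-IRF composite element GGAANNGAA, the interferon response core GAAANNGAA and the PU.1 core GAGGAA.
Pilra: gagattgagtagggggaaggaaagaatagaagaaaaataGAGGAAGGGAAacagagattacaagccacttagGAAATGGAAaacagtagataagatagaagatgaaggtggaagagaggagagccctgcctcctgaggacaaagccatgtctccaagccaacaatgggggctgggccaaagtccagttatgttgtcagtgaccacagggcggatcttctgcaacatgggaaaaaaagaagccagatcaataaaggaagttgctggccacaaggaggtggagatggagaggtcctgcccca
Pilrb1: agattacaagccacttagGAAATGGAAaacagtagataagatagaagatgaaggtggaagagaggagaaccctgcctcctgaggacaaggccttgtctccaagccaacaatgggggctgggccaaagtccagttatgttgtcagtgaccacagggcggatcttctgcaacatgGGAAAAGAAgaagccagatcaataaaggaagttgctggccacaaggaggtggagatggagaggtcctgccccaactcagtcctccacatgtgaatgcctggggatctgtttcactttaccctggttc
Pilrb2: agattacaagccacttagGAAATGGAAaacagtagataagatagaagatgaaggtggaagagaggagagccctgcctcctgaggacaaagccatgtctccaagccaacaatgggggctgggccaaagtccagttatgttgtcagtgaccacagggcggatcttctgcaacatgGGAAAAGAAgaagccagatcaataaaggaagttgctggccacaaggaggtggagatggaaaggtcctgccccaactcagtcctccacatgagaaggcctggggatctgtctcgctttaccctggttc
Cd300a: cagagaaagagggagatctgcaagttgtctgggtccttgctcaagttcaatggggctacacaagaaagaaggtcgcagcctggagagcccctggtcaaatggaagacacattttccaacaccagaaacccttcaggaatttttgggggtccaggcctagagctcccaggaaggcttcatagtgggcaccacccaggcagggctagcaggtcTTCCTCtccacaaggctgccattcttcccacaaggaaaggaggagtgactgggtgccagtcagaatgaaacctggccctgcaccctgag
Cd300lf: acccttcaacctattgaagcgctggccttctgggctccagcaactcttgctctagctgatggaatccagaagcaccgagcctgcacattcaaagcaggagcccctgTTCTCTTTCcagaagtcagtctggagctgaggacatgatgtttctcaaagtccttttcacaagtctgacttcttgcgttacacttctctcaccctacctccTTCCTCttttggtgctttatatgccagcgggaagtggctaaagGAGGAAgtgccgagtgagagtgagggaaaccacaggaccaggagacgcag

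The Pilrb1 and Pilrb2 windows matched at 292 of 300 bases (97.3%), and the Pilra window matched Pilrb2 at 244 of 246 bases (99.2%) once shifted by 54 bases. The ETS-IRF letters GGAANNGAA occurred in the 3 PILR windows, at -209 in Pilra and at -77 in Pilrb1 and Pilrb2, and in none of the CD300 windows. They occurred in 8.24% of all 32851 RefSeq mouse promoters of this length. The interferon core GAAANNGAA occurred in the 3 PILR windows, Cd300c2 and Cd300lf, against 8.56% of all promoters. The PU.1 core GAGGAA occurred in Pilra, where it overlaps the ETS-IRF match, and in Cd300a, Cd300ld, Cd300c2 and Cd300lf, against 28.3% of all promoters. TGANTCA (AP-1, in 7.81% of promoters), CACCTG (the E-box that Zeb2 is known to bind, 20.2%), TTACGTAA (0.119%) and TTATGTAA (0.938%), both of the kind bound by NFIL3, were in none of the 9 windows. These are matches of letters, and binding was not measured.

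In WT mice, 8 of the 9 receptors were lower in cDC1 than in cDC2 and only Cd300e was higher (edgeR, Benjamini-Hochberg adjusted p below 0.05 over 16036 genes). Over all genes tested, 23.4% were lower and 20.5% higher in that comparison. The inhibitory lipid receptor Cd300lf had 6.45 and 6.61 CPM in WT cDC1, against 208 and 243 CPM in WT cDC2 (log2 fold change -5.11, SE 0.20, adjusted p = 9.59e-11). Cd300a, an inhibitory receptor for phosphatidylserine and phosphatidylethanolamine, had 69.7 and 60.7 CPM in WT cDC1, against 306 and 281 CPM in WT cDC2 (-2.17, SE 0.11, adjusted p = 6.15e-10). Pilra, the inhibitory PILR, had 0.904 and 0.589 CPM in WT cDC1, against 14.9 and 15.3 CPM in WT cDC2 (-4.35, SE 0.28, adjusted p = 8.31e-09). For each of the 3 inhibitory receptors both cDC1 libraries lay below both cDC2 libraries. In bulk RNA a smaller share of expressing cells and less RNA per cell cannot be told apart. The 15 monocyte and macrophage markers summed to 224 to 317 CPM in WT cDC1, against 1150 to 1161 CPM in WT cDC2, with 10 of 15 lower. The 10 neutrophil markers summed to 0.360 to 0.432 CPM in WT cDC1, with Ly6g and Camp at 0, against 16.7 to 18.3 CPM in WT cDC2, with Elane, Camp and Ngp at 0. Their part in the receptor differences was not tested.

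Among the other members, Cd300ld, which signals through the Fc receptor gamma chain, had 1.61 and 1.47 CPM in WT cDC1, against 80.1 and 100.3 CPM in WT cDC2 (-5.87, SE 0.19, adjusted p = 3.82e-12). Cd300lb, a DAP12-coupled receptor, held 9 and 0 reads in WT cDC1, or 0.354 and 0 CPM, against 43.3 and 30.3 CPM in WT cDC2 (-7.79, SE 0.72, adjusted p = 1.03e-05). The fitted value rests on those few reads: it was -6.68 without WT cDC1 replicate 2 and -13.08 without WT cDC1 replicate 1, where no read remained in WT cDC1. Cd300c2, also DAP12-coupled, averaged 31.1 ± 3.61 CPM in WT cDC1 and 115 ± 0.227 CPM in WT cDC2 (SD, n = 2 each). The activating pair Pilrb1 and Pilrb2 together had 1.30 and 0.785 CPM in WT cDC1, against 27.8 and 31.3 CPM in WT cDC2. Taken singly, the log2 difference of Pilrb2 was -5.71, and it was -7.13 without WT cDC1 replicate 1 and -4.91 without WT cDC1 replicate 2. All 4 of these levels were separated between the cell types with no overlap of libraries. Cd300e, whose human form is an activating receptor coupled to DAP12, went the other way. It had 31.4 and 25.7 CPM in WT cDC1, against 19.6 and 21.3 CPM in WT cDC2 (0.48, SE 0.14, adjusted p = 0.012), and lost its call without WT cDC1 replicate 1 (adjusted p = 0.138) or WT cDC2 replicate 1 (0.0833). The median log2 fold change was -4.35 over the 9 members and -0.07 over all genes tested.

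Per kilobase of merged exon, Cd300c2 was the highest member in both WT cell types, at a mean of 24.4 CPM per kb in cDC1 and 89.9 CPM per kb in cDC2. In WT cDC1 it was followed by Cd300a at 13.8 and Cd300e at 13.7 CPM per kb, and in WT cDC2 by Cd300a at 61.9 and Cd300lf at 43.8 CPM per kb. The place of Cd300lf depends on the length used, since its merged exons span 5149 bases and its longest coding transcript 1885 bases. By the longest coding transcript, which is 1187 bases for Cd300c2, Cd300lf ranks above Cd300c2 in WT cDC2. The PILR genes were low in WT cDC2, at 7.77 CPM per kb for Pilrb1, 7.34 for Pilrb2 and 4.89 for Pilra.

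**Figure D1:**
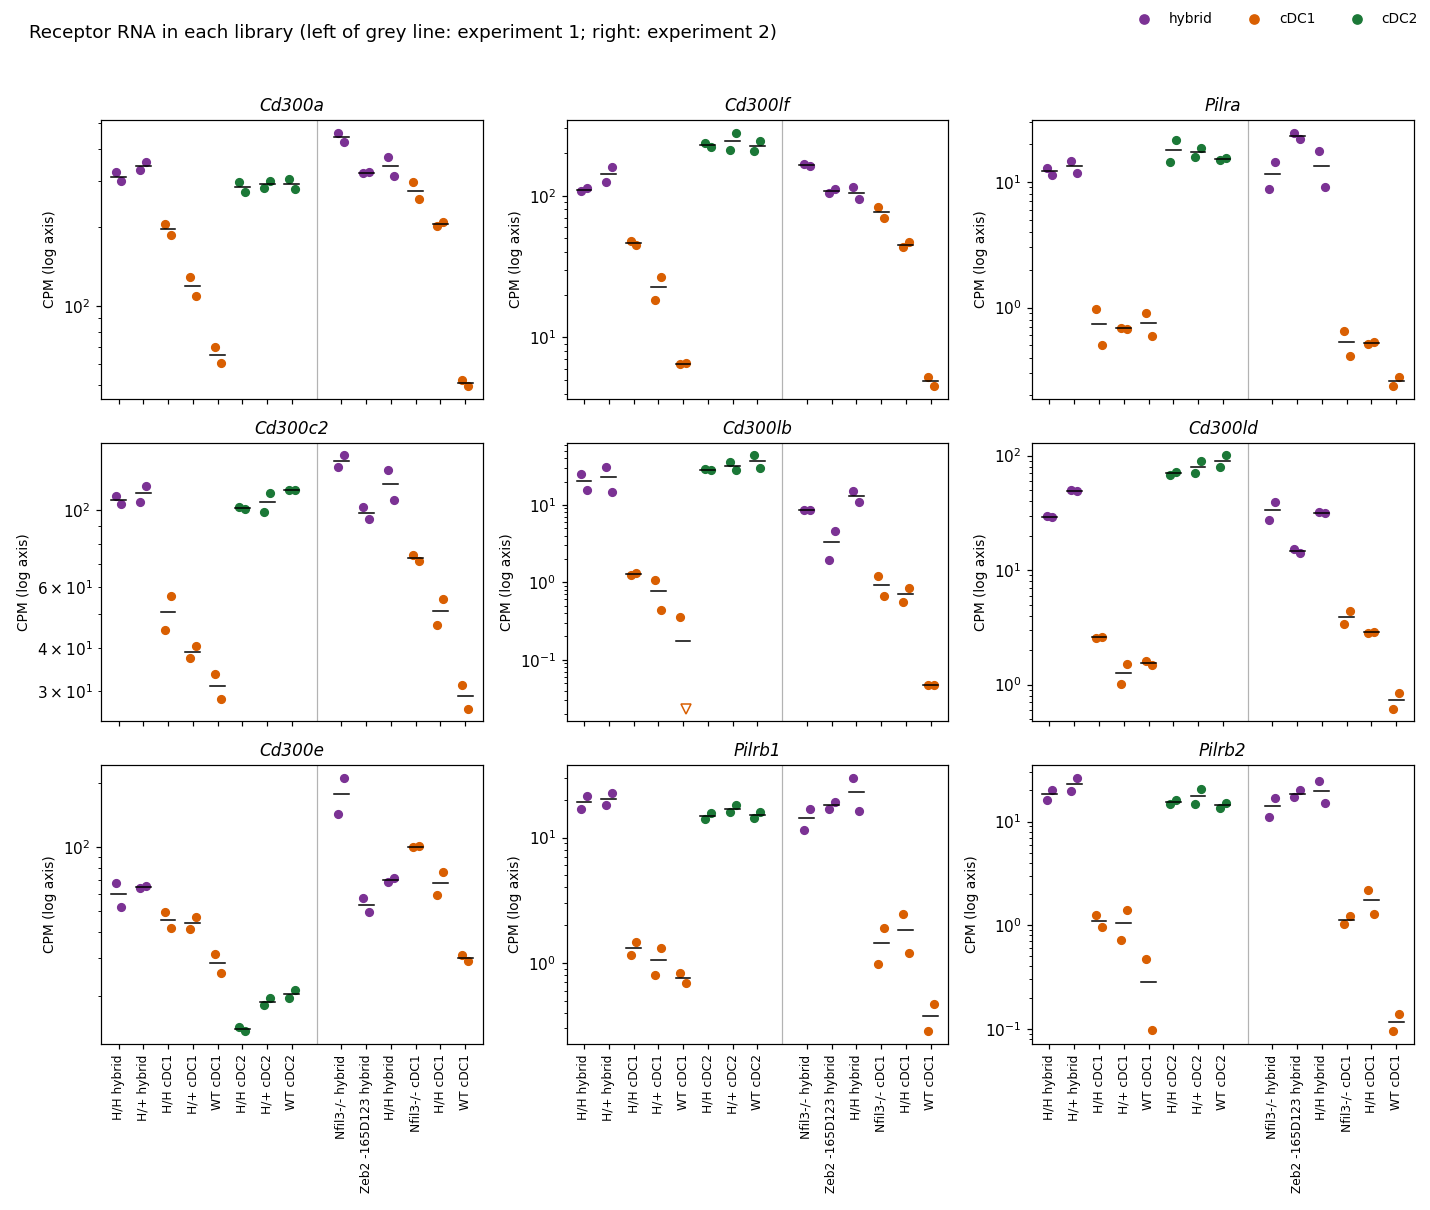
Level of each receptor in every library, in CPM on a log axis, with a panel per gene and the groups of experiments 1 and 2 along the horizontal axis. Points are libraries and bars are group means, and the open triangle in the Cd300lb panel is a WT cDC1 library with 0 reads, drawn at the bottom of the axis. For 8 of the 9 genes the WT cDC1 libraries lie below the WT cDC2 libraries, and Cd300e is the exception.

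Hybrid cells held most of these receptors at levels above cDC1 of the same genotype. In H/+ mice all 9 were higher in hybrid cells than in cDC1 (edgeR adjusted p below 0.05), against 9.77% of all genes. In H/H mice 8 of 9 were higher in experiment 1, against 5.24% of all genes, and 8 of 9 in experiment 2, against 7.24%. In H/H Nfil3-/- mice all 9 were higher, against 4.02% of all genes. There Cd300a lost its call without H/H Nfil3-/- cDC1 replicate 2 (adjusted p = 0.0624), and Cd300e without that library (0.0536) or H/H Nfil3-/- hybrid replicate 2 (0.15). Cd300e was the member without a call in H/H mice in either experiment. The median log2 difference over the 9 members was 4.27 in H/+, 3.50 and 3.47 in H/H and 3.10 in H/H Nfil3-/- mice, beside -0.003 to 0.012 over all genes in these comparisons.

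The low activating receptors and Pilra showed the largest of these differences. Cd300ld had 29.7 and 28.9 CPM in H/H hybrid cells, against 2.55 and 2.62 CPM in H/H cDC1 (log2 fold change 3.50, SE 0.17, adjusted p = 8.28e-09). Pilra had 12.9 and 11.2 CPM in H/H hybrid cells, against 0.978 and 0.50 CPM in H/H cDC1 (4.01, SE 0.28, adjusted p = 2.84e-07). Pilrb1 and Pilrb2 together had 33.1 and 41.7 CPM in H/H hybrid cells, against 2.41 and 2.42 CPM in H/H cDC1. In experiment 2 their sum was 54.3 and 31.4 CPM in H/H hybrid cells, against 4.66 and 2.50 CPM in H/H cDC1, and Pilra was 4.64 log2 units higher (SE 0.38, adjusted p = 1.4e-06). No hybrid library fell to the level of a cDC1 library for any of these genes.

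The inhibitory receptors Cd300a and Cd300lf differed less. Cd300a had 325 and 299.9 CPM in H/H hybrid cells, against 207 and 188 CPM in H/H cDC1 (0.66, SE 0.11, adjusted p = 0.000951). Cd300lf had 108 and 113 CPM in H/H hybrid cells, against 47.8 and 44.9 CPM in H/H cDC1 (1.25, SE 0.17, adjusted p = 0.000284). The same gene had 125 and 159 CPM in H/+ hybrid cells, against 18.4 and 26.7 CPM in H/+ cDC1 (2.66, SE 0.18, adjusted p = 1.23e-07). In both genotypes the hybrid libraries lay above the cDC1 libraries for both genes. Cd300e differed by 0.56 in H/+ mice (SE 0.14, adjusted p = 0.0114), a call lost without H/+ cDC1 replicate 1 (0.0996) or H/+ hybrid replicate 2 (0.069). In H/H mice it differed by 0.40 in experiment 1 (adjusted p = 0.106) and by 0.04 in experiment 2 (adjusted p = 0.9).

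Set against cDC2 of the same genotype, 3 of 9 receptors were called by edgeR in each genotype, Cd300lf and Cd300ld lower and Cd300e higher. In H/H mice 12.5% of all genes were lower and 12.9% higher in hybrid cells than in cDC2, and in H/+ mice 8.71% were lower and 10.3% higher. Cd300lf had 108 and 113 CPM in H/H hybrid cells, against 234 and 221 CPM in H/H cDC2 (-1.04, SE 0.17, adjusted p = 0.000386). Cd300ld had 29.7 and 28.9 CPM in H/H hybrid cells, against 67.7 and 72.5 CPM in H/H cDC2 (-1.26, SE 0.14, adjusted p = 1.25e-05). Cd300e had 68.0 and 52.1 CPM in H/H hybrid cells, against 14.2 and 13.7 CPM in H/H cDC2 (2.11, SE 0.15, adjusted p = 6.59e-08). In H/+ mice the log2 differences were -0.78 for Cd300lf (SE 0.17, adjusted p = 0.00465), -0.69 for Cd300ld (SE 0.14, adjusted p = 0.00299) and 1.79 for Cd300e (SE 0.14, adjusted p = 4.54e-07). In H/H mice the log2 difference of Pilra between hybrid cells and cDC2 was -0.58 (SE 0.22, adjusted p = 0.0638), and it passed when replicate 1 of H/H cDC2 was left out (0.0245), with those groups alone (0.0478) and with no filter (0.0129). The H/+ difference of Cd300lf lost its call without H/+ hybrid replicate 1 (0.0595) or H/+ cDC2 replicate 2 (0.0576). The hybrid groups serve in both sets of comparisons, so the differences from cDC1 and from cDC2 are not independent.

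In experiment 1 the group means of Cd300e were highest in hybrid cells, while those of Cd300lf and Cd300ld in hybrid cells lay between cDC1 and cDC2. In experiment 2 Cd300e averaged 100.7 ± 1.06 CPM in H/H Nfil3-/- cDC1, 69.8 ± 2.08 CPM in H/H hybrid cells, 67.7 ± 11.8 CPM in H/H cDC1 and 53.7 ± 5.57 CPM in H/H Zeb2 -165D123 hybrid cells (SD, n = 2 each). Ranked by group mean in experiment 1, Cd300e ran from H/+ and H/H hybrid cells, whose libraries overlapped, to H/H and H/+ cDC1, which overlapped too, then to WT cDC1 and last to WT, H/+ and H/H cDC2. Cd300lf ran from the 3 cDC2 groups, which overlapped, through H/+ hybrid, H/H hybrid, H/H cDC1 and H/+ cDC1 to WT cDC1, with no overlap between neighbours after the cDC2 groups. Cd300a was highest in H/+ hybrid cells, followed by H/H hybrid cells and the 3 cDC2 groups, which overlapped, and then by H/H, H/+ and WT cDC1, which did not. Between H/H and H/+ hybrid cells 0 of 9 members were called by edgeR, against 0.131% of all genes. There 2 members had an unadjusted p below 0.05, as did 1079 of 16036 genes. DESeq2 called 76 genes, among them 1 member, Cd300ld. It had 29.7 and 28.9 CPM in H/H hybrid cells, against 49.7 and 49.5 CPM in H/+ hybrid cells (-0.76, SE 0.14, adjusted p = 0.0641 by edgeR and 0.00132 by DESeq2).

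The list of 15 monocyte and macrophage markers moved with these receptors. It summed to 967 to 1009 CPM in H/H hybrid cells, to 259 to 362 CPM in H/H cDC1 and to 997 to 1124 CPM in H/H cDC2, and 11 of its 15 genes were higher in H/H hybrid cells than in H/H cDC1. The 10 neutrophil markers summed to 13.6 to 15.1 CPM in H/H hybrid cells, with Ly6g and Camp at 0, and to 0.770 to 0.943 CPM in H/H cDC1, with Elane and Camp at 0. The part of other cells in the receptor levels was not tested.

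**Figure D2:**
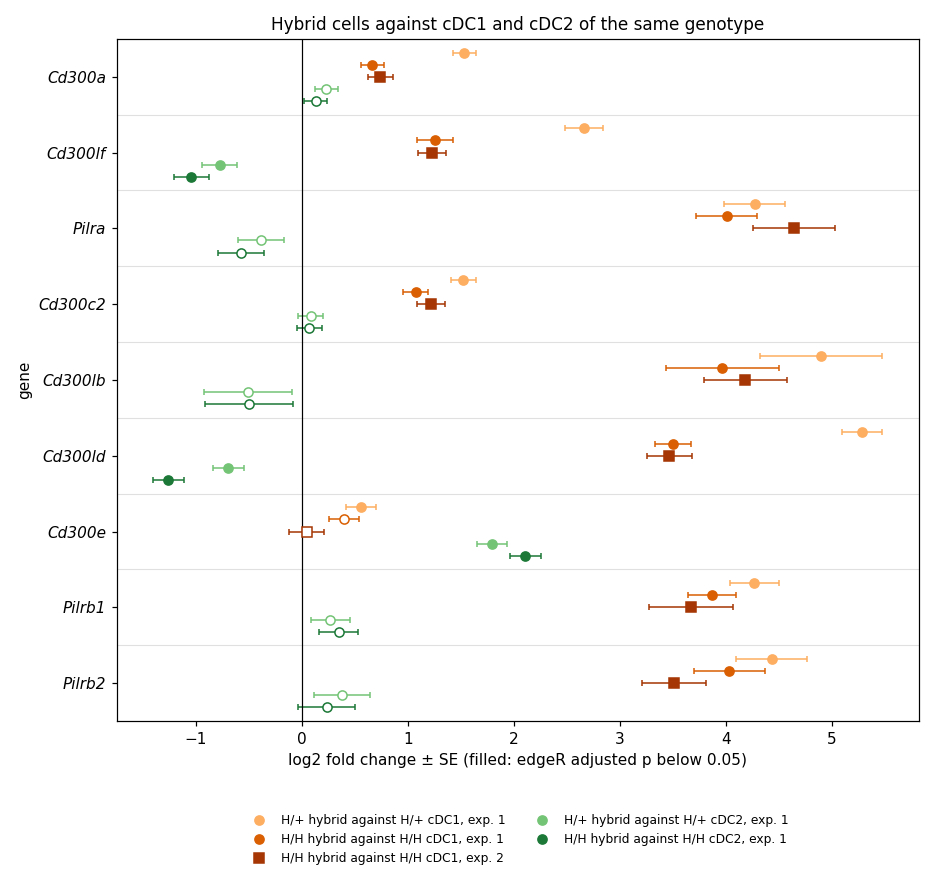
Log2 fold change with its SE for each receptor in hybrid cells against cDC1 and against cDC2 of the same genotype. Filled symbols have an edgeR adjusted p below 0.05. Against cDC1 all symbols lie at or right of 0, while against cDC2 only Cd300lf and Cd300ld are called lower and only Cd300e is called higher.

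Several of the receptors were higher in cDC1 that carried the altered Irf8 enhancer. In experiment 1, 5 of 9 were higher in H/H cDC1 than in WT cDC1, against 2.7% of all genes, and in experiment 2, 8 of 9, against 4.37%. None was lower. With 1 altered copy, 3 of 9 were higher in H/+ cDC1 than in WT cDC1, against 1.16% of all genes, namely Cd300a, Cd300lf and Cd300e. Pilrb2 was 1.96 log2 units higher in that comparison (SE 0.53), with adjusted p = 0.0901 by edgeR and 0.0032 by DESeq2. The members called in experiment 1 were Cd300a, Cd300lf, Cd300c2, Cd300e and Pilrb2, and in experiment 2 all but Pilra. The count of 5 fell to 2 without WT cDC1 replicate 2 and to 3 without H/H cDC1 replicate 1. The H/H and H/+ comparisons of experiment 1 share their WT libraries, whereas experiment 2 has libraries of its own.

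Cd300lf showed a graded level in cDC1. It had 47.8 and 44.9 CPM in H/H cDC1 and 18.4 and 26.7 CPM in H/+ cDC1, against 6.45 and 6.61 CPM in WT cDC1. In experiment 2 it had 43.2 and 46.8 CPM in H/H cDC1, against 5.28 and 4.54 CPM in WT cDC1. The groups did not overlap in either experiment, and H/H cDC1 stood 7.10-fold above WT cDC1 in experiment 1 (log2 2.83, SE 0.19, adjusted p = 7.35e-07) and 9.16-fold in experiment 2 (3.20, SE 0.15, adjusted p = 1.35e-09). The H/+ level was 1.79 log2 units above WT (SE 0.19, adjusted p = 0.000273). H/H exceeded H/+ cDC1 by 1.04 (SE 0.17, adjusted p = 0.019), a call that held in 1 of 4 fits with a library left out and was lost without H/+ cDC1 replicate 1 (0.133), H/H cDC1 replicate 1 (0.15) or H/H cDC1 replicate 2 (0.119).

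Cd300a followed the same order. It had 207 and 188 CPM in H/H cDC1 and 129 and 109 CPM in H/+ cDC1, against 69.7 and 60.7 CPM in WT cDC1. In experiment 2 it had 202 and 209 CPM in H/H cDC1, against 52.4 and 49.6 CPM in WT cDC1. Again no libraries overlapped between genotypes. H/H cDC1 stood 3.03-fold above WT in experiment 1 (log2 1.60, SE 0.11, adjusted p = 5.41e-07) and 4.03-fold in experiment 2 (2.01, SE 0.12, adjusted p = 2.45e-08), and H/+ cDC1 0.87 log2 units above WT (SE 0.11, adjusted p = 0.00088). H/H exceeded H/+ cDC1 by 0.73 (SE 0.11, adjusted p = 0.00681), a call lost without H/H cDC1 replicate 1 (0.0923). Between H/H and H/+ cDC1, 2 of 9 members were called by edgeR, against 0.218% of all genes, and leaving out 1 library gave 0 to 3. Cd300ld was 1.02 log2 units higher in that comparison (SE 0.21), with adjusted p = 0.0587 by edgeR, 0.0129 by DESeq2 and 0.000212 by edgeR with no filter on low counts. The third inhibitory receptor, Pilra, was low in all cDC1. It had 0.978 and 0.50 CPM in H/H cDC1, against 0.904 and 0.589 CPM in WT cDC1 of experiment 1 (0.02, SE 0.36, adjusted p = 0.997). In experiment 2 it was 1.00 log2 unit higher with an SE of 0.63 (adjusted p = 0.499).

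The other members changed less or rested on few reads. Cd300c2 had 45.1 and 56.4 CPM in H/H cDC1, against 33.7 and 28.5 CPM in WT cDC1 (0.71, SE 0.12, adjusted p = 0.00234), a call lost without WT cDC1 replicate 2 (0.0566). It was higher in experiment 2 as well (0.82, SE 0.14, adjusted p = 0.00107). Cd300e had 49.4 and 41.8 CPM in H/H cDC1 and 41.1 and 47.1 CPM in H/+ cDC1, against 31.4 and 25.7 CPM in WT cDC1. The H/H and H/+ libraries overlapped each other and lay above WT. The H/H difference was 0.68 in experiment 1 (SE 0.14, adjusted p = 0.0102), lost without WT cDC1 replicate 2 (0.156) or H/H cDC1 replicate 1 (0.138), and 1.16 in experiment 2 (SE 0.17, adjusted p = 0.000295). The H/+ difference was 0.63 (SE 0.14, adjusted p = 0.0406). It lost its call in each of 4 fits without 1 library, at 0.0699 without WT cDC1 replicate 1, 0.303 without WT cDC1 replicate 2, 0.0774 without H/+ cDC1 replicate 1 and 0.109 without H/+ cDC1 replicate 2.

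Cd300ld, Cd300lb and the Pilrb pair remained far below their level in cDC2. Cd300ld had 2.82 and 2.90 CPM in H/H cDC1, against 0.618 and 0.842 CPM in WT cDC1 of experiment 2 (1.96, SE 0.29, adjusted p = 0.000348). In experiment 1 it had 2.55 and 2.62 CPM in H/H cDC1, against 1.61 and 1.47 CPM in WT cDC1 (0.75, SE 0.20, adjusted p = 0.0545). H/H libraries lay above WT libraries in both. Cd300lb held 11 and 19 reads in H/H cDC1, against 1 and 1 read in WT cDC1 of experiment 2, a ratio of CPM of 15.2 with a 95% exact counting interval of 3.85 to 131. Its call there (adjusted p = 0.01) was lost without H/H cDC1 replicate 2 (0.0806), WT cDC1 replicate 1 (0.0873) or WT cDC1 replicate 2 (0.0917). In experiment 1 it held 36 and 34 reads in H/H cDC1, against 9 and 0 reads in WT cDC1, a ratio of 7.97 with an interval of 3.97 to 18.2. It was not called there by edgeR (adjusted p = 0.16) but was by DESeq2 (0.00384). An edgeR fit of both experiments at once called it too (0.000514). That fit estimates 1 effect shared with the libraries of experiment 2, so it does not test experiment 1 alone. Such intervals cover counting error only.

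Pilrb1 and Pilrb2 together had 4.66 and 2.50 CPM in H/H cDC1, against 0.380 and 0.608 CPM in WT cDC1 of experiment 2. In experiment 1 they had 2.41 and 2.42 CPM in H/H cDC1, against 1.30 and 0.785 CPM in WT cDC1. Taken singly, Pilrb2 was called in both experiments (adjusted p = 0.048 and 0.000434) and Pilrb1 in experiment 2 (0.046). In experiment 1 the log2 difference of Pilrb2 was 2.03, and it was 3.45 without WT cDC1 replicate 1 and 1.23 without WT cDC1 replicate 2. That call was lost by edgeR with RLE size factors (adjusted p = 0.051) and with the compared groups alone (0.0925). It was also lost without WT cDC1 replicate 2, H/H cDC1 replicate 1 or H/H cDC1 replicate 2. In experiment 2 the Pilrb1 call was lost without H/H cDC1 replicate 1 (0.277, with the log2 difference at 1.66 in place of 2.24), WT cDC1 replicate 1 (0.324) or WT cDC1 replicate 2 (0.201). Pilrb2 held 72 reads over H/H cDC1, against 5 over WT cDC1 of experiment 2, a ratio of 14.6 with a counting interval of 5.96 to 46.2.

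Some markers of other cells moved with genotype in these cDC1. The cDC2 list summed to 190 to 209 CPM in H/H cDC1, against 22.4 to 24.2 CPM in WT cDC1 of experiment 1, with 5 of 8 genes higher. It summed to 293 to 537 CPM in H/H cDC1, against 15.8 to 20.5 CPM in WT cDC1 of experiment 2, with 6 of 8 higher. The cDC1 list summed to 2301 to 2380 CPM in H/H cDC1, against 4468 to 5154 CPM in WT cDC1 of experiment 1, with 4 of 8 genes lower. That list includes Irf8, whose enhancer is altered, at means of 834 CPM in H/H cDC1 and 2270 CPM in WT cDC1. Much of the drop in the sum is therefore Irf8 itself. The B cell list of 5 genes summed to 114 to 119 CPM in H/H cDC1, against 27.0 to 30.2 CPM in WT cDC1 of experiment 1. Of its 4 tested genes 1 was higher. The monocyte and macrophage list summed to 259 to 362 CPM in H/H cDC1, against 224 to 317 CPM in WT cDC1, with 1 of 15 genes higher. Their part in the receptor differences was not tested.

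In cDC2 the receptors showed no called change. Between H/H and WT cDC2 0 of 9 were called by edgeR, against 0.0811% of all genes. An unadjusted p below 0.05 was found for 2 receptors and 563 of 16036 genes, and DESeq2 called 0 receptors and 34 genes. Between H/+ and WT cDC2 0 of 9 were called by edgeR, against 0.0249% of all genes. There 0 receptors and 829 genes had an unadjusted p below 0.05, and DESeq2 called 0 receptors and 32 genes. Cd300e had 14.2 and 13.7 CPM in H/H cDC2, against 19.6 and 21.3 CPM in WT cDC2 (-0.55, SE 0.14, adjusted p = 0.513). Its libraries did not overlap. Cd300lf had 234 and 221 CPM in H/H cDC2, against 208 and 243 CPM in WT cDC2, with overlap.

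The H/H effect in cDC1 exceeded that in cDC2 for 5 of 9 receptors, against 1.4% of all genes, by edgeR's test of the difference of the 2 effects. The log2 difference was 2.82 for Cd300lf (SE 0.25, adjusted p = 2.26e-05), 1.64 for Cd300a (SE 0.15, adjusted p = 2.26e-05), 1.23 for Cd300e (SE 0.20, adjusted p = 0.00343), 1.11 for Cd300ld (SE 0.25, adjusted p = 0.0289) and 0.88 for Cd300c2 (SE 0.17, adjusted p = 0.0107). That of Cd300ld held in 1 of 8 fits with a library left out. The count fell to 3 without WT cDC1 replicate 2, H/H cDC1 replicate 2 or H/H cDC2 replicate 2, where Cd300c2 reached adjusted p = 0.0727, 0.0621 and 0.0501.

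**Figure D3:**
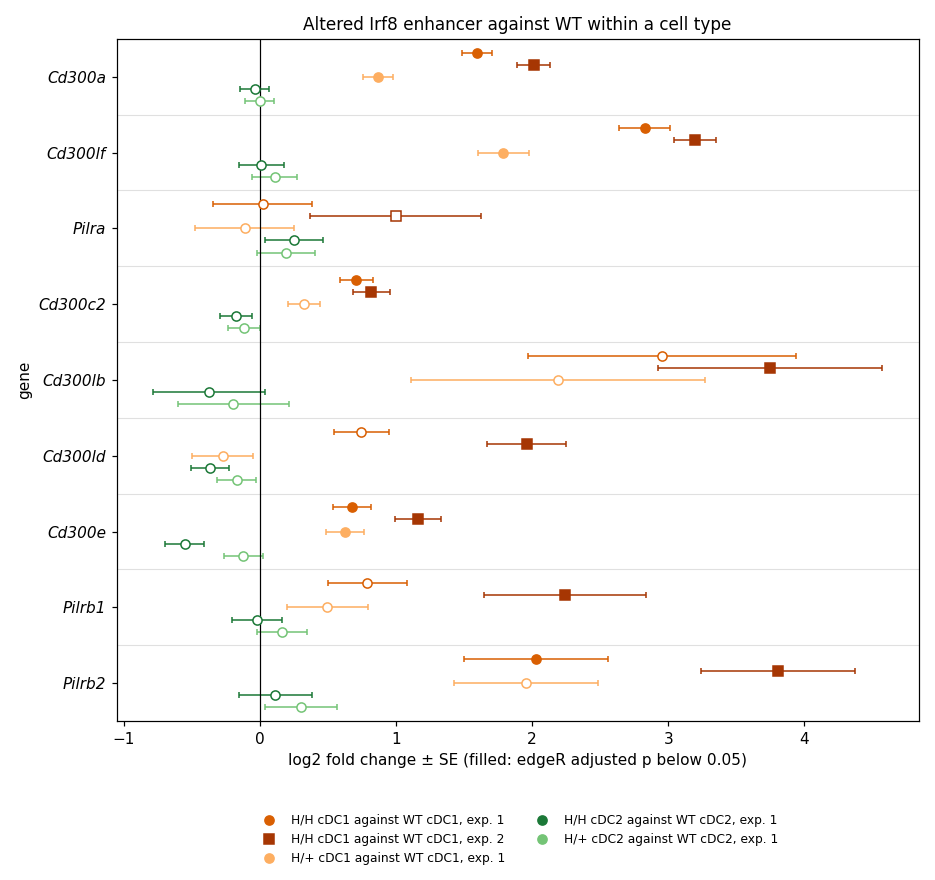
Log2 fold change with its SE for each receptor in H/H or H/+ cells against WT cells of the same type. Filled symbols have an edgeR adjusted p below 0.05. Every filled symbol belongs to a cDC1 comparison and lies right of 0, with Cd300lf at 2.83 and 3.20 in H/H cDC1, while the cDC2 symbols lie between -0.55 and 0.30 and are open.

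Loss of Nfil3 on the H/H genotype went with more Cd300lf in both cell types and more Cd300e in hybrid cells. In cDC1, 1 of 9 receptors was higher in H/H Nfil3-/- mice than in H/H mice, against 1.34% of all genes, and in hybrid cells 2 of 9, against 1.93%. Cd300lf had 83.3 and 69.7 CPM in H/H Nfil3-/- cDC1, against 43.2 and 46.8 CPM in H/H cDC1 (0.77, SE 0.13, adjusted p = 0.00366). It had 166 and 163 CPM in H/H Nfil3-/- hybrid cells, against 115 and 95.1 CPM in H/H hybrid cells (0.65, SE 0.13, adjusted p = 0.00949). Libraries with and without Nfil3 did not overlap in either cell type. The cDC1 call held without each library in turn. The hybrid call held in 1 of 4 such fits and was lost without H/H hybrid replicate 2 (0.188), H/H Nfil3-/- hybrid replicate 1 (0.0735) or H/H Nfil3-/- hybrid replicate 2 (0.0609), so that the count of 2 fell to 1 in those 3.

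Cd300e had 144 and 211 CPM in H/H Nfil3-/- hybrid cells, against 68.4 and 71.3 CPM in H/H hybrid cells, a 2.54-fold difference (log2 1.34, SE 0.17, adjusted p = 0.000192). Both libraries without Nfil3 lay above all other libraries of either experiment for this gene. In cDC1 it had 99.9 and 101.4 CPM in H/H Nfil3-/- mice, against 59.4 and 76.1 CPM in H/H mice, without overlap (0.57, SE 0.16, adjusted p = 0.0776). Subtracting the effect of Nfil3 loss in cDC1 from that in hybrid cells left 0.77 log2 units for Cd300e (SE 0.23, adjusted p = 1). In that test 0 of 9 receptors were called by edgeR, against 0.00689% of all genes. An unadjusted p below 0.05 was found for 1 receptor and 510 of 14504 genes, and DESeq2 called 0 receptors and 3 genes.

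Of the other members in cDC1, Cd300a averaged 277 ± 28.8 CPM in H/H Nfil3-/- and 206 ± 5.35 CPM in H/H cells (0.43, adjusted p = 0.0633; SD, n = 2 each). Cd300c2 averaged 72.9 ± 1.87 CPM in H/H Nfil3-/- and 51.1 ± 6.20 CPM in H/H cells (0.51, adjusted p = 0.0501; SD, n = 2 each). Neither passed by edgeR, whereas DESeq2 called both and Cd300e too, and so did edgeR with no filter on low counts. Without H/H cDC1 replicate 2 the count of members called by edgeR was 3. Pilra, Cd300lb, Cd300ld, Pilrb1 and Pilrb2 were not called by edgeR in either cell type as fitted over all groups. In hybrid cells Cd300a averaged 442 ± 23.8 CPM in H/H Nfil3-/- and 343 ± 41.7 CPM in H/H mice (SD, n = 2 each), without overlap. It was not called by edgeR as fitted over all groups. DESeq2 called it higher (0.391, adjusted p = 0.0283), as did edgeR with the compared groups alone (0.372, 0.0286). In the same cells edgeR called Cd300lb lower with the compared groups alone (-0.615, adjusted p = 0.0406) and Pilrb1 with no filter (-0.66, 0.0364).

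The neutrophil list moved with Nfil3. It summed to 23.5 to 31.4 CPM in H/H Nfil3-/- cDC1, against 1.18 to 1.21 CPM in H/H cDC1, where Ly6g, Retnlg, Elane and Camp were at 0. It summed to 55.4 to 96.3 CPM in H/H Nfil3-/- hybrid cells, against 17.6 to 20.1 CPM in H/H hybrid cells, where Ly6g was at 0. In each cell type 2 of 9 tested neutrophil markers were higher. The cDC2 list summed to 121 to 131 CPM in H/H Nfil3-/- cDC1, against 293 to 537 CPM in H/H cDC1, with 1 of 8 genes lower. It summed to 810 to 937 CPM in H/H Nfil3-/- hybrid cells, against 1507 to 1953 CPM in H/H hybrid cells, with 1 lower. The cDC1 list summed to 1962 to 2106 CPM in H/H Nfil3-/- hybrid cells, against 1242 to 1306 CPM in H/H hybrid cells. Of its 8 genes 3 were higher there and none lower. In cDC1 it summed to 2364 to 2458 CPM without Nfil3, against 1902 to 1906 CPM in H/H mice, with 2 higher and 1 lower. Their part in the receptor differences was not tested.

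Hybrid cells with the Zeb2 -165D123 alleles held less Cd300lb and Cd300ld. These 2 of 9 receptors were lower than in H/H hybrid cells, against 1.79% of all genes, and none was higher. Cd300lb had 1.95 and 4.63 CPM in H/H Zeb2 -165D123 hybrid cells, against 15.2 and 10.9 CPM in H/H hybrid cells, a 3.89-fold lower level (log2 -1.96, SE 0.33, adjusted p = 0.00316). Its call was lost without H/H hybrid replicate 1 (0.0641), and without H/H Zeb2 -165D123 hybrid replicate 2 its log2 difference was -2.76 (0.00211). Cd300ld had 15.2 and 14.2 CPM in H/H Zeb2 -165D123 hybrid cells, against 31.9 and 31.4 CPM in H/H hybrid cells, a 2.15-fold lower level (log2 -1.10, SE 0.18, adjusted p = 0.00261). For both genes the libraries of the 2 genotypes did not overlap. When Xist-bearing libraries were given a factor of their own in the fit, the log2 differences were -2.13 for Cd300lb (adjusted p = 0.00734) and -1.23 for Cd300ld (0.00187).

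Pilra ran the other way without passing the main edgeR test. With no filter on low counts edgeR called it higher (0.778, adjusted p = 0.0121). It had 24.4 and 21.9 CPM in H/H Zeb2 -165D123 hybrid cells, against 17.4 and 9.03 CPM in H/H hybrid cells (0.81, SE 0.27, adjusted p = 0.133). With H/H hybrid replicate 1 left out its adjusted p was 0.0483. Cd300a had 322 and 325 CPM in H/H Zeb2 -165D123 hybrid cells, against 372 and 313 CPM in H/H hybrid cells, with overlap. The monocyte and macrophage list summed to 1458 to 1523 CPM in H/H Zeb2 -165D123 hybrid cells, against 736 to 845 CPM in H/H hybrid cells. The cDC2 list summed to 1232 to 1237 CPM in H/H Zeb2 -165D123 hybrid cells, where Mgl2 was at 0, against 1507 to 1953 CPM in H/H hybrid cells. Of the 15 monocyte and macrophage genes, C1qa, C1qb, C1qc, Mertk and Vcam1 were higher and Ccr2 lower, and their part in the Pilra, Cd300lb and Cd300ld levels was not tested. The Nfil3-/- and Zeb2 comparisons share the H/H hybrid libraries.

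**Figure D4:**
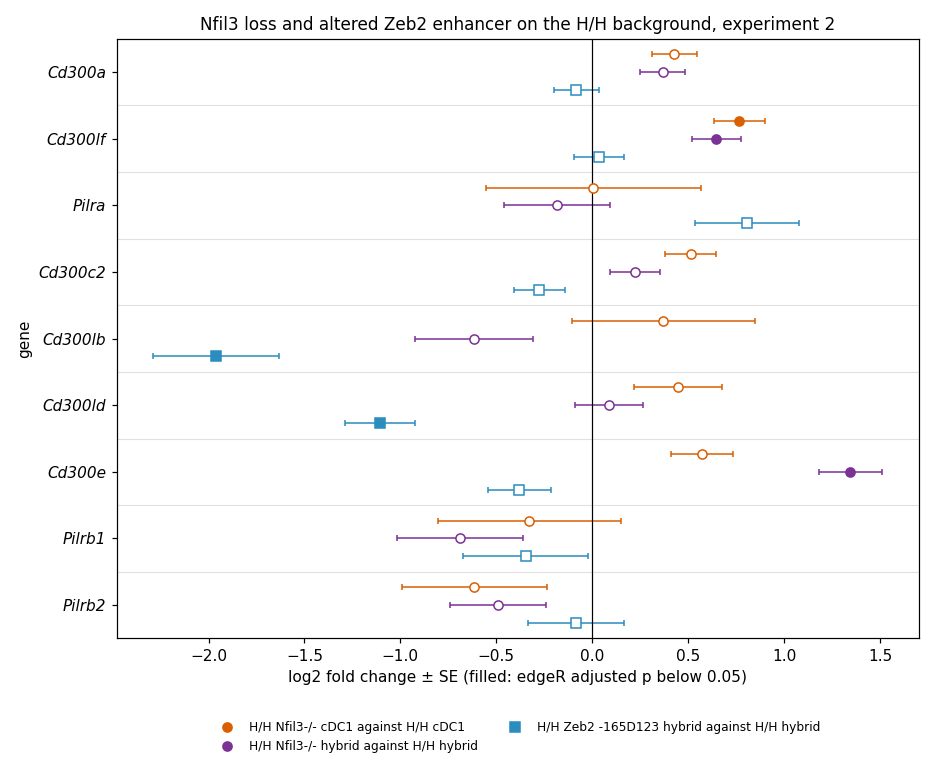
Log2 fold change with its SE for each receptor in H/H Nfil3-/- cDC1 and hybrid cells and in H/H Zeb2 -165D123 hybrid cells, each against the same cell type of H/H mice. Filled symbols have an edgeR adjusted p below 0.05. Cd300lf is higher without Nfil3 in both cell types, Cd300e in hybrid cells, and Cd300lb and Cd300ld are lower with the Zeb2 alleles.

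The balance between the inhibitory receptors and the other members was described as the share of Cd300a, Cd300lf and Pilra in the summed CPM per kb of all 9. In cDC1 this share was 46.3% and 42.0% in H/H, 38.0% and 33.5% in H/+ and 27.5% and 28.6% in WT libraries of experiment 1. In experiment 2 it was 42.1% and 38.5% in H/H Nfil3-/- cDC1, 42.7% and 39.3% in H/H cDC1 and 23.4% and 24.3% in WT cDC1. Each H/H library lay above each WT library. With the longest coding transcript as the length, the shares in experiment 1 were 52.2% and 47.8% in H/H cDC1, 41.7% and 39.2% in H/+ cDC1 and 29.5% and 31.0% in WT cDC1, in the same order.

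In cDC2 the share was 45.2% and 43.5% in H/H, 42.9% and 43.4% in H/+ and 40.9% and 40.4% in WT libraries. In hybrid cells it was 37.7% and 38.1% in H/H and 37.9% and 38.9% in H/+ libraries of experiment 1. In experiment 2 it was 39.9% and 33.6% in H/H Nfil3-/-, 42.3% and 43.7% in H/H Zeb2 -165D123 and 37.2% and 36.9% in H/H hybrid cells. The share in hybrid cells thus lay above WT cDC1 and, in experiment 1, below WT cDC2. All hybrid groups carry the altered Irf8 enhancer, so these WT comparisons mix genotype with cell type. Against cDC1 of the same genotype, the H/H hybrid libraries lay lower in both experiments. In H/+ and in H/H Nfil3-/- mice the hybrid and cDC1 libraries overlapped. The H/+ result depends on the length used. With the longest coding transcript the share was 45.7% and 47.7% in H/+ hybrid cells, above 41.7% and 39.2% in H/+ cDC1. By that length the H/H hybrid libraries still lay below H/H cDC1 in both experiments, and the H/H Nfil3-/- libraries still overlapped. The share follows from the levels above and was not tested.

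**Figure D5:**
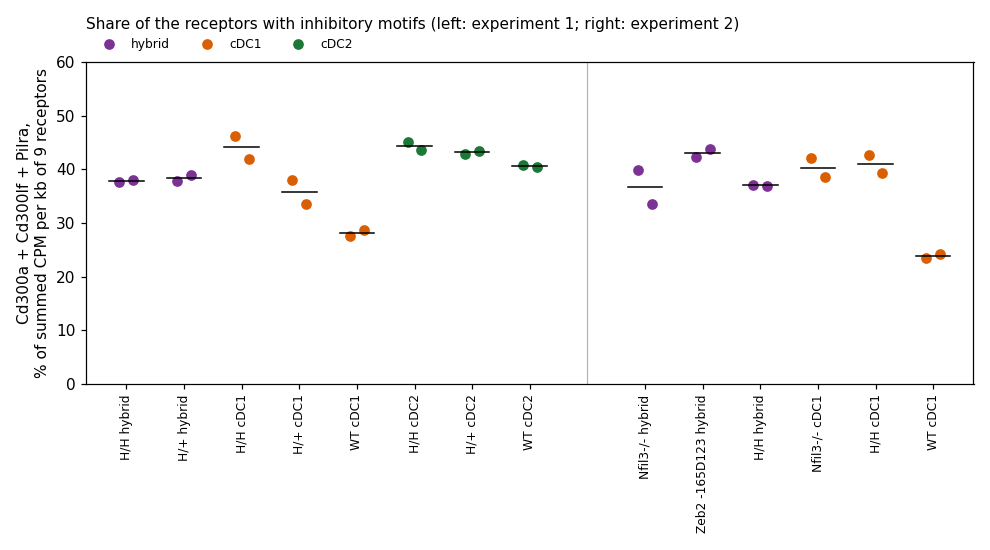
Share of Cd300a, Cd300lf and Pilra in the summed CPM per kb of the 9 receptors, in percent, by group. Points are libraries and bars are group means. WT cDC1 have the lowest shares, 27.5% and 28.6% in experiment 1 and 23.4% and 24.3% in experiment 2.

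Of the 15 adaptors and signalling genes known to act with such receptors, 3 were higher in H/H cDC1 than in WT cDC1 of experiment 1, against 2.7% of all genes, and 6 in experiment 2, against 4.37%. None was lower in either. Their median log2 fold change in experiment 1 was 0.15. Fcer1g, the Fc receptor gamma chain, averaged 86.2 ± 3.39 CPM in H/H cDC1 and 30.2 ± 2.59 CPM in WT cDC1 (SD, n = 2 each; 1.51, SE 0.09, adjusted p = 2.42e-07). In experiment 2 it averaged 100.04 ± 15.5 CPM in H/H cDC1 and 23.0 ± 2.30 CPM in WT cDC1 (SD, n = 2 each; 2.12, adjusted p = 4.54e-07). Tyrobp, which encodes DAP12, was high in all groups. It averaged 353 ± 8.54 CPM in H/H cDC1 and 290.3 ± 3.54 CPM in WT cDC1 (SD, n = 2 each; 0.28, adjusted p = 0.0763), and in experiment 2 the difference was 0.61 (adjusted p = 0.00365). Fgr, a Src family kinase, was 1.36 higher in experiment 1 (adjusted p = 0.000912), and Ptpn6, the phosphatase SHP-1, 0.41 (0.0238).

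Between H/H hybrid cells and H/H cDC1, 5 of the 15 were higher and none lower, against 5.24% of all genes higher. Tyrobp averaged 631 ± 40.3 CPM in H/H hybrid cells and 353 ± 8.54 CPM in H/H cDC1 (SD, n = 2 each; 0.84, adjusted p = 1.14e-05). Fcer1g averaged 392 ± 3.45 CPM in H/H hybrid cells and 86.2 ± 3.39 CPM in H/H cDC1 (SD, n = 2 each; 2.19, adjusted p = 1.97e-09). Against H/H cDC2, 3 were higher and 4 lower in H/H hybrid cells, beside 12.9% and 12.5% of all genes. Fcer1g had a log2 difference of 0.01 between H/H Nfil3-/- and H/H hybrid cells (adjusted p = 0.985) and of -0.42 between H/H Zeb2 -165D123 and H/H hybrid cells (adjusted p = 0.174).

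Among genes for known PILR ligands, Pianp was 5.68 log2 units higher in WT cDC1 than in WT cDC2, at means of 24.5 and 0.516 CPM, and Cd99l2 4.24 higher, at 19.8 and 1.02 CPM. The log2 fold change of Clec4g was -6.64 in WT cDC1, at 0.0557 CPM against 5.79 CPM in WT cDC2. Hybrid cells of H/H mice held both Pianp, at a mean of 15.5 CPM against 1.49 CPM in H/H cDC2 (3.37), and the PILR receptors. Among genes of the CD300 cluster outside the 9, Cd300c was lower without Nfil3, where Cd300lf was higher. It averaged 1.74 ± 0.518 CPM in H/H Nfil3-/- cDC1 and 8.26 ± 0.384 CPM in H/H cDC1 (SD, n = 2 each; -2.25, adjusted p = 0.000235). It averaged 3.96 ± 1.48 CPM in H/H Nfil3-/- hybrid cells and 14.9 ± 1.48 CPM in H/H hybrid cells (SD, n = 2 each; -1.92, adjusted p = 0.000337).

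Of 21 other paired immunoglobulin receptors tested in experiment 1, 17 were lower and 3 higher in WT cDC1 than in WT cDC2, against 23.4% and 20.5% of all genes. In H/H hybrid cells 12 of them were higher than in H/H cDC1 and none was lower, against 5.24% of all genes higher. In H/H against WT cDC1, 4 were higher and 1 lower, against 2.7% and 1.47% of all genes, with Lair1 at 1.51, Siglecg at 1.10 and Lilra6 at 1.07. Of 12 genes that flank the 2 clusters and were tested in experiment 1, 7 were lower and 2 higher in WT cDC1 than in WT cDC2, and 2 were higher and none lower in H/H hybrid cells than in H/H cDC1. The shares of all genes in these comparisons are those given above, 23.4% lower and 20.5% higher for WT and 5.24% higher for H/H hybrid cells.

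Over the 8 group means of experiment 1, each of 2 libraries with all genes read in the same libraries, the 8 members other than Cd300e had pairwise Pearson correlations of log2 CPM between 0.846 and 0.991. Those of Cd300e with the others lay between -0.38 and -0.02. The tested genes whose group means were most like a member's were taken from 7711 genes. They were Ms4a4c (0.997), Ifi27 (0.997) and Ms4a6b (0.996) for Cd300lf, and Rsad2 (0.997), Nectin4 (0.995) and Ifit3 (0.993) for Cd300a. Over the 6 groups of experiment 2 the same pairs had correlations of 0.995, 0.928 and 0.991 for Cd300lf and of 0.951, 0.952 and 0.997 for Cd300a. Those of Cd300ld were Sirpb1c (0.999), Pltp (0.999) and Sirpb1b (0.997), and those of Pilra were Pld3 (0.999), C1qb (0.998) and C1qc (0.997). For Cd300lb they were Zeb2 (0.998), Ctsh (0.997) and Abi3 (0.996), with 0.979, 0.916 and 0.915 in experiment 2. For Cd300e the likeness did not carry over in every case, since Tnfsf13b had 0.996 in experiment 1 and 0.295 in experiment 2. Tgfbi had 0.993 and 0.88, and Ripk1 0.991 and 0.476. For Cd300c2 it was Rgs2 (0.999, and 0.318 in experiment 2), Csf3r (0.998) and Adcy7 (0.997). Pilrb1 was most like Cd5l (0.993), Axl (0.992) and Fth1 (0.992), and Pilrb2 most like Slc40a1 (0.994), Igsf6 (0.992) and Slc37a2 (0.992).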

How the data were processed

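Expected counts per gene were deposited by the authors in 1 table per experiment, per the file headers, and 10.8% and 10.2% of the values were not whole numbers. The submitters' processing notes name bcl2fastq, DRAGEN and edgeR. The aligner settings, strand setting and annotation are not given in the sources used here, so reads of overlapping antisense genes cannot be told apart. Of 55774 lines, 287 repeated an ID, and 55141 of 55487 IDs were found in GENCODE M21 (GRCm38), which gave locations. Counts were rounded to whole numbers. Each experiment was fitted alone with edgeR 4.0.16 in R 4.3.3 (filterByExpr by group, TMM, robust quasi-likelihood, 1 coefficient per group), with p-values adjusted by Benjamini-Hochberg over 16036 and 14504 genes and a threshold of 0.05. Levels are TMM-scaled CPM. With 2 libraries against 2, an exact permutation test cannot go below 0.333, so none was run. For the same reason, libraries of 2 groups that do not overlap are weak evidence. The share of all genes without overlap was not computed. The script was tested on simulated data.

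Alternatives were RLE size factors, no filter, the compared groups alone, a replicate block, DESeq2 1.42.0, both experiments in 1 fit and each library left out. A term for libraries with at least 10 CPM of Xist was added after seeing the data. The members and gene lists were chosen with earlier results of these data known. Named genes are all 9 members, up to 3 called genes per list and comparison with the largest change, and the 3 genes most like each member with at least 10 CPM in some group. Cd300c, Tyrobp, Fcer1g and the markers named beside the lists were given wherever they bore on a member, some chosen after their values were seen. Replicates differed beyond counting noise in every group, with a chi-square per degree of freedom of 8.83 to 42.1.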

Additional observations from a re-analysis of the deposited data

Results flagged for a closer look

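For 5 receptors the effect of the H/H genotype differed between cDC1 and cDC2 of experiment 1, by edgeR's test of the difference of the 2 log2 effects with Benjamini-Hochberg adjustment. The effect in cDC1 minus that in cDC2 was 2.82 for Cd300lf, 1.64 for Cd300a, 1.23 for Cd300e, 1.11 for Cd300ld and 0.88 for Cd300c2. H/H cDC1 libraries lay above WT cDC1 libraries for each of the 5. The 5 were picked by effects in these same libraries, so this separation is no further support. Between H/H and WT cDC2, where no receptor was called, the libraries of 4 of 9 receptors were apart too. The share of all genes with libraries apart was not computed, so this count does not set the receptors apart from other genes. The cDC2 groups had 2 libraries each, as had every group, which is too few to look for a library far from the others.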

How the results depend on the processing

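None of the 77 called receptor differences changed direction under the alternatives. In settings that kept all libraries, 438 values stayed on their side of the threshold and 6 lost the call. With 1 library left out, 285 stayed and 43 lost it. The count of receptors called in H/H against WT cDC1 of experiment 1, 5, fell in some fits with a library left out. It lost Pilrb2 with RLE size factors (edgeR adjusted p = 0.051) and with those groups alone (0.0925). With both experiments in 1 fit 8 were called. That fit estimates 1 effect shared with the libraries of experiment 2, so it does not test experiment 1 alone. In H/H against H/+ cDC1 the count of 2 was 0 with those groups alone and 0 to 3 with a library left out. In H/H against WT cDC2 the count of 0 was 1 with no filter. In H/H against H/+ hybrid cells the count of 0 was 1 with no filter, with the groups alone, by DESeq2 and with the replicate block. The difference of H/H effects gave 3 to 5 with a library left out. For Nfil3-/- in cDC1 the count of 1 was 2 with RLE size factors, 4 with no filter, 4 by DESeq2 and 1 to 3 with a library left out. For Nfil3-/- in hybrid cells the count of 2 was 4 with the groups alone and 1 to 2 with a library left out. The number of all genes called changes with the setting too. In H/H against H/+ hybrid cells it was 21 by edgeR and 76 by DESeq2. For Nfil3-/- DESeq2 called 602 genes in cDC1 and 874 in hybrid cells. Such numbers are not given here for the other settings, so these counts do not set the receptors apart from other genes. The cause was not tested. The log2 difference of Cd300lb between H/+ hybrid cells and cDC1, 4.89, was 5.66 without H/+ cDC1 replicate 1 and 4.27 without H/+ hybrid replicate 1. The labels do not say that replicate numbers pair libraries. In experiment 1 number 2 went with Xist in all 8 groups, and replicate differences of 2 groups correlated at -0.051 to 0.283, over 0.1 in 9 of 28 pairs. In experiment 2 they correlated at -0.209 to 0.145, over 0.1 in 1 of 15. The replicate block kept 76 of 77 calls and lost Pilrb1 in H/H against WT cDC1 of experiment 2 (adjusted p = 0.0699). It added Cd300lb (0.0235) and Cd300ld (0.0324) in H/H against WT cDC1 of experiment 1, for a count of 7, Cd300ld in H/H against H/+ cDC1 (0.0239) and H/H against H/+ hybrid cells (0.00893), Pilrb2 in H/+ against WT cDC1 (0.0387), Pilra in H/H hybrid cells against cDC2 (0.0494) and Cd300lb in the difference of effects (0.0327). The Xist factor left every count of experiment 2 as it was. A fit with 1 library in a group assumes that it varies like the others. The Pilrb genes, Pilra and Cd300lb had few reads in cDC1, which limits what can be seen there.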
